A study of Homo sapiens with 6 samples.

Results

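Mitochondria carry their own ribosome, which translates the mRNAs of mitochondrial DNA into core subunits of the oxidative phosphorylation complexes. All of its proteins are encoded in the nucleus, made in the cytosol and imported. Many descend from bacterial ribosomal proteins, others are found only in mitochondria, and most carry a gene symbol that begins with MRPL for the large subunit or MRPS for the small subunit. The genes described here are the rows of the expression table whose symbol is MRPL or MRPS followed by a number and at most 1 letter. MRPS6 was left out because it overlaps SLC5A3. This gave 77 of the 58302 genes. By the known structure of the human particle, 51 encode large subunit proteins, among them MRPS30 and MRPS18A despite their symbols. A further 25 encode small subunit proteins, and MRPS36 is today regarded as a subunit of the 2-oxoglutarate dehydrogenase complex rather than of the ribosome.

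The cells were PC-3, an established human prostate cancer line. One group received a lentivirus for overexpression of BHLHE22, a basic helix-loop-helix transcription factor, and the other a blank lentivirus (vector), with 3 RNA-seq libraries each. Nothing in the labels says whether a group was 1 clone, when the cells were harvested, or whether its libraries came from separate cultures, so p-values measure the spread between libraries, which may be technical. BHLHE22 itself had 1 count in each vector library and 92 to 133 in the BHLHE22 libraries. Library totals ran from 12186723 to 15949537 counts. Among markers, the epithelial genes KRT8, KRT18, KRT19, EPCAM and CDH1 had a summed level of 1167 to 1302 CPM (read counts scaled to a common library size) in vector and 1117 to 1323 CPM in BHLHE22 libraries. KRT19, which was not called, gave most of that sum, with means of 803 CPM in vector and 852 CPM in BHLHE22 libraries. EPCAM was called higher and KRT8 and KRT18 lower at an edgeR adjusted p under 0.05, and CDH1 was not called. Over all tested genes 25.1% were higher and 24.3% lower. The luminal prostate gene KLK3 was listed at 0. The 5 luminal genes together gave 143 to 186 CPM against 63.4 to 75.4 CPM, the 4 fibroblast genes 63.3 to 73.4 against 47.2 to 49.8 CPM, and the 3 endothelial genes 50.01 to 64.7 against 19.2 to 26.2 CPM. The 5 blood cell genes gave 51.7 to 59.7 against 44.8 to 52.3 CPM, with TYROBP, HBB and CD3E at 0. The part of these markers in the results was not tested.

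Most of the change in mitochondrial ribosomal protein genes was upward and modest in size. Of the 77 genes, 76 passed the filter on low counts. In BHLHE22 cells 43 of them were higher, 1 was lower and 32 were not called, at a Benjamini-Hochberg adjusted p under 0.05 in edgeR's quasi-likelihood test. Over all 15945 tested genes, 25.1% were called higher and 24.3% lower. The median log2 fold change of the 76 genes was 0.39, a 1.31-fold rise, against a median of 0.0038 over all tested genes, and single genes ran from -0.53 to 2.23. Among the 43 that rose, the median log2 fold change was 0.62 and the smallest 0.29. A rise of at least 1.5-fold was called for 25 of the 76 genes, against 17.0% of all tested genes. One of at least 2-fold was called for 3 of the 76, against 8.17% of all tested genes. The lowest BHLHE22 library lay above the highest vector library for 49 of the 76 genes, where this held for 30.6% of all tested genes. Levels are relative to the other RNA of a library after scaling by the trimmed mean of M-values (TMM). In such bulk samples a change in the number of cells that express a gene and a change in RNA per cell cannot be told apart.

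**Figure D1:**
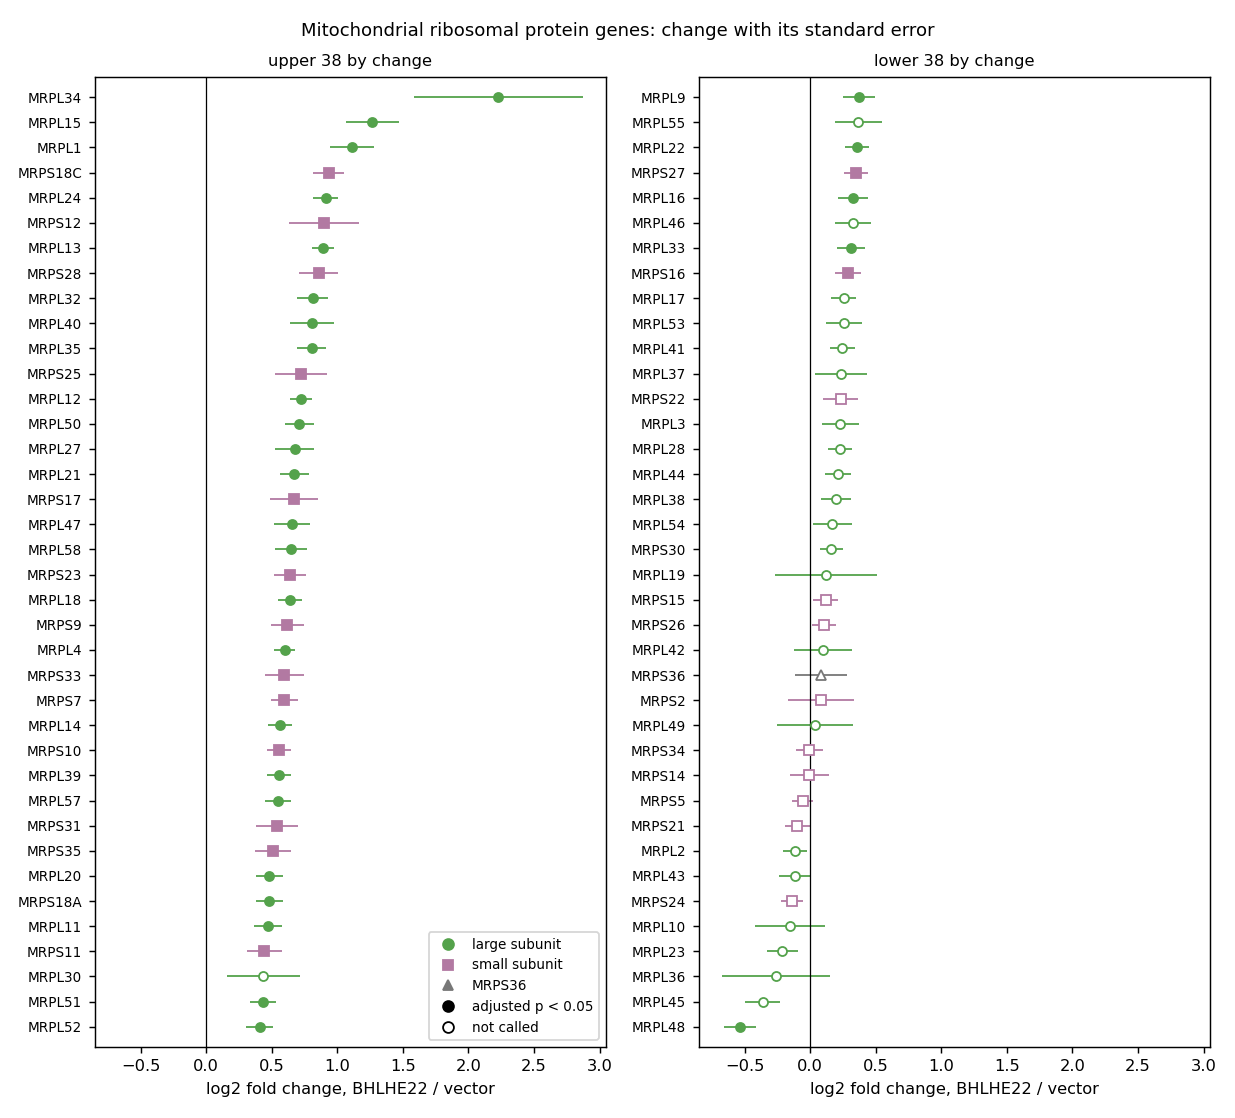
Log2 fold change (BHLHE22 over vector, horizontal axis) with its standard error for the 76 tested genes, ordered by size over both panels; filled symbols passed an adjusted p under 0.05, circles are large subunit genes, squares small subunit genes and the triangle MRPS36. The 43 filled symbols right of 0 and the single filled symbol left of it, MRPL48, show the direction of the calls.

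**Figure D2:**
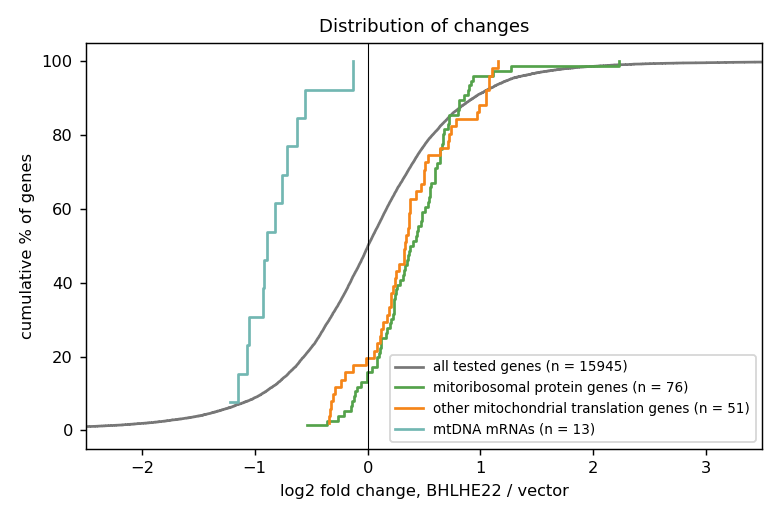
Cumulative percentage of genes (vertical axis) by log2 fold change (BHLHE22 over vector) for all tested genes, the mitochondrial ribosomal protein genes, other mitochondrial translation genes and the mRNAs of mitochondrial DNA. The curve of the 76 ribosomal protein genes lies right of that of the 15945 tested genes over most of its length, with a median of 0.39; a few genes lie outside the plotted range.

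The summed level of the 77 genes shows the same direction in every library. It was 2506, 2520 and 2692 CPM in vector replicates 1 to 3, and 3219, 3339 and 3509 CPM in BHLHE22 replicates 1 to 3. The groups did not overlap, and among the vector libraries replicate 3 was highest. Large subunit genes summed to 1596 to 1743 CPM in vector and 2062 to 2323 CPM in BHLHE22 libraries. For small subunit genes the ranges were 895 to 943 and 1130 to 1180 CPM. In the per-length scale of the authors' deposited FPKM, the ratio of summed large to summed small subunit levels was 1.87 to 1.92 in vector and 2.07 to 2.26 in BHLHE22 libraries. Such sums weigh genes with high FPKM most. The median log2 fold change per gene went the other way, at 0.37 for the large and 0.48 for the small subunit.

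**Figure D3:**
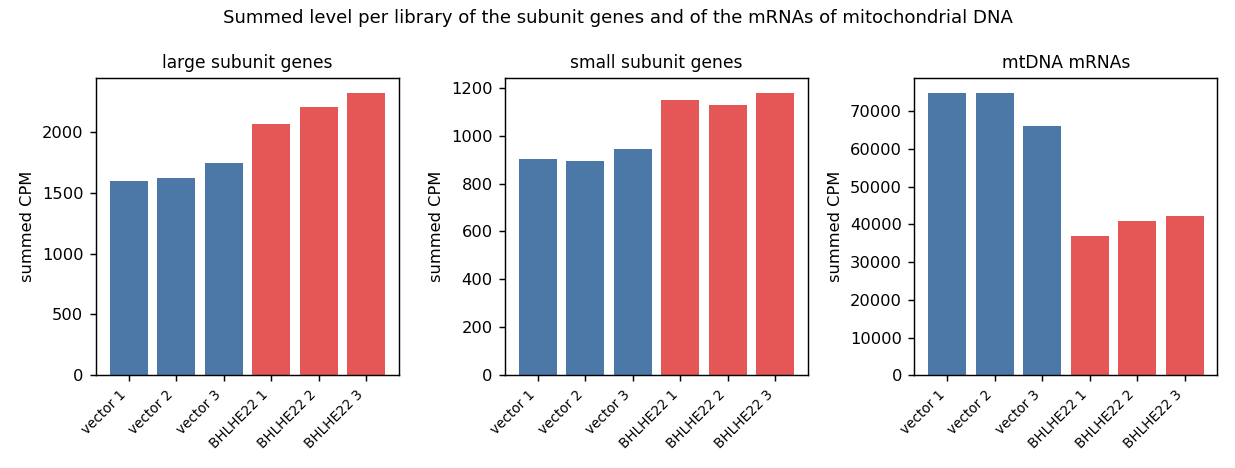
Summed CPM per library (vertical axes start at 0 and differ between panels) of large subunit genes, small subunit genes and the mRNAs of mitochondrial DNA, with vector libraries in blue and BHLHE22 libraries in red. Both subunit sums are higher in all BHLHE22 libraries, while the sums for mitochondrial DNA are lower.

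Calls fell on both subunits. For these counts and those of the structural regions below, 25.1% of all tested genes were higher and 24.3% lower. Of 51 large subunit genes 28 were higher and 1 lower, with a median log2 fold change of 0.37. Of 24 tested small subunit genes 15 were higher and 0 lower, with a median of 0.48. Among the 45 genes with a bacterial counterpart 29 were higher and 0 lower (median 0.47). Among the 30 tested genes classed as specific to the mitochondrial ribosome 14 were higher and 1 lower (median 0.29). That class includes MRPS18A and MRPL58, which are related to bacterial proteins, as described below. The difference between these classes was not tested.

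The largest rises of the large subunit were in MRPL34, MRPL15 and MRPL1. MRPL15, whose protein has a bacterial homologue in the large subunit, stood at 3.93, 3.33 and 5.35 CPM in the vector libraries and at 9.29, 9.54 and 11.5 CPM in the BHLHE22 libraries. It rose 2.41-fold (log2 fold change 1.27, SE 0.20, edgeR adjusted p = 0.00183). MRPL1, the counterpart of the bacterial protein of the mobile L1 stalk, stood at 4.76, 4.01 and 5.42 CPM against 9.60, 9.47 and 11.6 CPM (log2 fold change 1.11, SE 0.17, edgeR adjusted p = 0.00141). For both genes all BHLHE22 libraries lay well above all vector libraries. MRPL13, another large subunit gene with a bacterial homologue, averaged 39.3 ± 1.6 CPM in vector and 72.8 ± 3.7 CPM with BHLHE22 (SD, n = 3 per group; log2 fold change 0.89, SE 0.09, edgeR adjusted p = 0.000278). Its neighbour MTBP starts on the other strand at nearly the same place and was called higher as well, by a log2 fold change of 0.71.

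MRPL34 had the largest fitted change and the least even libraries. Its levels were 7.56, 6.73 and 6.20 CPM in vector libraries and 7.96, 42.9 and 44.8 CPM in BHLHE22 libraries. BHLHE22 replicate 1, with 102 counts, thus lay just above the vector libraries, while replicates 2 and 3 held 598 and 747 counts. The log2 fold change of 2.23 (SE 0.64, edgeR adjusted p = 0.0321) lost its call without any 1 vector library (adjusted p = 0.0807 to 0.110), without BHLHE22 replicate 2 (0.0867) or without replicate 3 (0.0954), and with the block (0.0958), limma-voom (0.0636) or no filter (0.122). Leaving out BHLHE22 replicate 1 gave 2.69. The gene (ENSG00000130312, chromosome 19, 17292609 to 17306843, GRCh38) overlaps the coding gene ABHD8 and also AC010463.3, whose values are not given here. ABHD8 stood at 74.9, 80.7 and 70.1 CPM in vector and 57.4, 58.5 and 59.5 CPM in BHLHE22 libraries, with no such step among the latter. The reason for the low replicate was not tested.

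**Figure D4:**
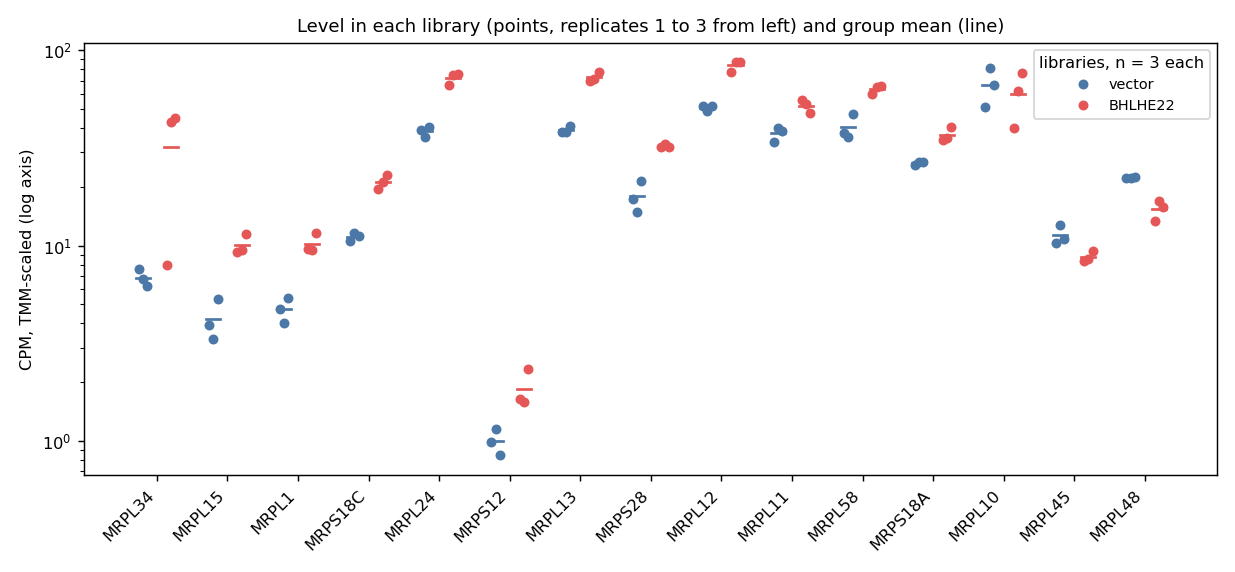
CPM in each of the 6 libraries (log axis) for 15 genes named by role or size of change, with vector libraries in blue, BHLHE22 libraries in red and a line at each group mean. MRPL34 has 1 BHLHE22 library near the vector level, MRPL10 overlaps between groups, and MRPL48 is lower in all BHLHE22 libraries.

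The stalk of the large subunit, which recruits translation factors, was mixed. Of its 5 genes 2 rose, MRPL12 and MRPL11, and 3 were not called. MRPL12 encodes the stalk protein that also binds the mitochondrial RNA polymerase. It was the most abundant member per length in both groups, at 46.9 FPKM in vector and 85.5 FPKM in BHLHE22 cells on the authors' deposited scale, where the tested members had a median of 6.58 in vector cells. Its libraries stood at 51.6, 49.2 and 51.8 CPM against 77.8, 86.7 and 86.6 CPM (log2 fold change 0.72, SE 0.08, edgeR adjusted p = 0.000535), with clearly separate groups. MRPL11, at the stalk base, averaged 37.6 ± 3.1 CPM in vector and 52.2 ± 3.9 CPM with BHLHE22 (log2 fold change 0.47, SE 0.10, edgeR adjusted p = 0.00754). MRPL10, which tethers MRPL12 to the particle, gave 51.0, 80.9 and 66.8 CPM against 40.0, 62.2 and 76.5 CPM. Its groups overlapped and it was not called (log2 fold change -0.15, edgeR adjusted p = 0.671). The sign of that value turned without vector replicate 2 (0.02) or without BHLHE22 replicate 1 (0.08).

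Around the mouth of the exit tunnel, where new peptides leave the ribosome, 4 of 8 genes rose and 0 fell. MRPL24 (ENSG00000143314, chromosome 1, 156737303 to 156741590, GRCh38) led them with 39.0, 35.9 and 40.4 CPM in vector and 66.4, 74.9 and 75.9 CPM in BHLHE22 libraries. The groups were far apart and the rise was 1.88-fold (log2 fold change 0.91, SE 0.10, edgeR adjusted p = 0.000365). MRPL47, MRPL39 and MRPL22 rose by 0.66, 0.55 and 0.36 on the log2 scale; the call of MRPL22 ended without vector replicate 1. MRPL45, which anchors the particle to the inner membrane, stood at 10.4, 12.7 and 10.8 CPM against 8.35, 8.54 and 9.42 CPM. All its BHLHE22 libraries were below all vector libraries, yet it lay just outside the threshold (log2 fold change -0.36, SE 0.13, edgeR adjusted p = 0.0549). MRPL17, MRPL23 and MRPL44 were not called. For MRPL17 the log2 fold change was 0.26 (edgeR adjusted p = 0.0564), and it passed without BHLHE22 replicate 1 (0.0386) and with unscaled library sizes (0.0133).

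The central protuberance, the crest of the large subunit that faces the small subunit, held both the risen genes and the only gene that fell. Of its 9 genes 5 rose: MRPL40, MRPL27, MRPL58, MRPL18 and MRPL52, by log2 fold changes of 0.81, 0.67, 0.65, 0.64 and 0.41. MRPL58, which keeps the peptidyl-tRNA hydrolase activity of bacterial release factors, rose from 40.4 ± 6.2 to 63.1 ± 3.3 CPM (SE 0.12, edgeR adjusted p = 0.00384). MRPL48 (ENSG00000175581, chromosome 11, 73787316 to 73865133, GRCh38) stood at 22.2, 22.2 and 22.4 CPM in vector and at 13.4, 16.9 and 15.8 CPM in BHLHE22 libraries. The vector libraries were almost identical and all BHLHE22 libraries were lower. It fell by 31.0% (log2 fold change -0.53, SE 0.12, edgeR adjusted p = 0.00812) and was called in all 13 other fits. MRPL46, MRPL38 and MRPL55 were not called.

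Among the other large subunit genes, MRPL14, second to MRPL12 in FPKM averaged over all libraries, averaged 35.5 ± 1.7 CPM in vector and 52.4 ± 2.7 CPM with BHLHE22 (log2 fold change 0.56, SE 0.09, edgeR adjusted p = 0.00203). MRPL16, just inside the threshold, had a log2 fold change of 0.33 (SE 0.11, edgeR adjusted p = 0.0451). That call ended with DESeq2 (0.0530), without vector replicate 1 (0.139) or 2 (0.121), and without BHLHE22 replicate 2 (0.0952) or 3 (0.121). MRPS30, a large subunit protein despite its symbol, averaged 65.1 ± 5.1 CPM in vector and 72.8 ± 2.5 CPM with BHLHE22 and was not called (log2 fold change 0.16, edgeR adjusted p = 0.168; 0.0320 with unscaled library sizes).

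In the small subunit, the 3 genes with the largest rises encode proteins with bacterial homologues. MRPS18C stood at 10.6, 11.6 and 11.2 CPM in vector and 19.5, 21.2 and 23.1 CPM in BHLHE22 libraries (log2 fold change 0.94, SE 0.12, edgeR adjusted p = 0.000715). MRPS28 gave 17.2, 14.8 and 21.5 CPM against 31.9, 33.0 and 32.0 CPM (log2 fold change 0.86, SE 0.15, edgeR adjusted p = 0.00245). Both sets of libraries were clearly apart. MRPS12, the decoding-site protein, was the lowest tested member, with only 12 to 17 counts in vector and 21 to 39 in BHLHE22 libraries. Its levels of 0.983, 1.16 and 0.845 CPM against 1.64, 1.58 and 2.34 CPM did not overlap (log2 fold change 0.90, SE 0.27, edgeR adjusted p = 0.0250). The call ended with DESeq2 (0.106) or the replicate number as a block (0.0601), and without vector replicate 1 (0.0675), vector replicate 3 (0.0683) or BHLHE22 replicate 3 (0.0859). MRPS12 overlaps the start of SARS2, which also had few reads, with 9 to 14 counts per library. MRPS26, next after MRPL12 and MRPL14 in FPKM averaged over all libraries, had 41.6 FPKM in vector and 49.6 FPKM in BHLHE22 cells on the authors' scale and was not called (log2 fold change 0.11, edgeR adjusted p = 0.359).

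MRPS18A, MRPS18B and MRPS18C are paralogs of 1 bacterial protein that occupy different places in the mitochondrial particle. MRPS18A, of the large subunit, stood at 26.0, 26.9 and 26.8 CPM in vector and 34.9, 35.7 and 40.6 CPM in BHLHE22 libraries. It rose by 0.48 on the log2 scale (SE 0.10, edgeR adjusted p = 0.00621), and MRPS18C by 0.94. MRPS18B (chromosome 6, 30617709 to 30626395, GRCh38) had 0 counts in all libraries and was not tested. Of the 32 coding genes within 0.5 Mb of it, 22 also had 0 counts in every library (68.8%), against 12.4% of all coding genes. No level of MRPS18B can be read from this table. MRPS36, the gene outside the ribosome, averaged 6.33 ± 1.23 CPM in vector and 6.71 ± 1.14 CPM with BHLHE22 and was not called (log2 fold change 0.08, edgeR adjusted p = 0.757). Its sign turned without vector replicate 2 (-0.06) or BHLHE22 replicate 1 (-0.05).

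Replicates were close for most members: the ratio of the highest to the lowest library had a median of 1.21 in vector and 1.16 in BHLHE22 cells. It exceeded 2 in 4 genes, MRPL34, MRPL19, MRPL36 and MRPL49, of which the last 3 are named after their values were seen. MRPL19 gave 45.7, 42.7 and 56.0 CPM in vector and 23.9, 63.1 and 69.7 CPM in BHLHE22 libraries, so that replicate 1 again stood below the other two. Its log2 fold change was 0.12 (edgeR adjusted p = 0.821), and 0.47 without that library (0.0312). MRPL19 overlaps the coding gene GCFC2 on the other strand. GCFC2 gave 9.76, 9.11 and 14.4 CPM in vector and 21.7, 26.9 and 33.0 CPM in BHLHE22 libraries. It was called higher (log2 fold change 1.29, SE 0.22, edgeR adjusted p = 0.00253), and its part in the values of MRPL19 was not tested. MRPL36 gave 21.2, 23.0 and 13.0 CPM against 11.9, 26.0 and 9.96 CPM (log2 fold change -0.26, edgeR adjusted p = 0.633), and without BHLHE22 replicate 2 the value was -0.80 (0.0480). MRPL49 ran from 19.3 to 46.0 CPM among vector libraries alone. Across the 76 genes, level and change were nearly unrelated (Pearson r = 0.0185, Spearman rho = 0.0784, log2 mean FPKM against log2 fold change). These values describe genes of the same 6 libraries, which are not independent.

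Many of these genes share their locus with others. In the deposited coordinates 47 of the 77 overlap another gene and 36 overlap a protein-coding gene. Overlap was taken over whole gene spans, introns included, and shared exons were not counted. Because the sources used here do not say that counting used strand, reads from a stretch that 2 genes share cannot be told apart. Of the 30 genes that overlap none, 16 were higher and 0 lower (median log2 fold change 0.36), and of the 46 tested genes that overlap another, 27 were higher and 1 lower (median 0.43). Head-to-head arrangements were also common: 29 members start within 1000 bases of the start of a coding gene on the other strand. Of the 29 pairs, with MRPS11 and MRPL46 counted once, 23 had both genes tested. Both genes rose in 6 of these. In 8 pairs the member rose and the partner was not called, and in 1 pair the member rose and the partner fell. Where the member was not called, the partner rose in 2 pairs, fell in 3 and was not called in 3. Over all tested genes 25.1% were higher and 24.3% lower. MRPL18 and the chaperonin gene TCP1, whose starts lie 63 bases apart, rose by 0.64 and 0.67 on the log2 scale, and MRPL57 and the kinetochore gene SKA3 by 0.55 and 1.74. MRPS7 rose by 0.60 while its partner GGA3 fell by 0.36. MRPS11 and MRPL46 form a pair of 2 members with starts 34 bases apart. MRPS11 rose by 0.44 (edgeR adjusted p = 0.0247; 0.0698 to 0.0759 on leaving out any 1 of vector replicates 1 and 2 and BHLHE22 replicates 2 and 3), and MRPL46 had 0.33 without a call (0.0812).

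RefSeq promoter windows (GRCh38.p14, from 250 bases before to 50 bases after a start) were given for 68 of the 77 genes. The 7-base ETS core CCGGAAG, on either strand, occurred in 42.6% of them, in 18.8% of the windows of tested genes and in 10.7% over all 27305 gene symbols with a window, at 1 window per symbol. The YY1 core AAGATGGC occurred in 29.4%, 5.30% and 3.03%. The E-box CACGTG, a palindrome bound by many helix-loop-helix factors, occurred in 8.82%, 10.1% and 7.43%. The NRF1 core, also a palindrome, occurred in 1.47%, 2.32% and 1.36%. None of the motifs contains another. Among members, the ETS core was in 17 of 38 windows of genes that rose and in 11 of 28 of genes not called. The YY1 core was in 12 and 7, and the E-box in 2 and 4. These are matches of letters, not measured binding. The upstream 250 bases of 4 members that rose and whose window meets no annotated exon are printed to show what such a match looks like. The first 3 hold the ETS core or its reverse complement, in capitals, and MRPL11, whose RefSeq start lies inside the span the table gives for the gene, holds none of the 4 motifs.
MRPL58, chr17:75012420-75012669, plus strand: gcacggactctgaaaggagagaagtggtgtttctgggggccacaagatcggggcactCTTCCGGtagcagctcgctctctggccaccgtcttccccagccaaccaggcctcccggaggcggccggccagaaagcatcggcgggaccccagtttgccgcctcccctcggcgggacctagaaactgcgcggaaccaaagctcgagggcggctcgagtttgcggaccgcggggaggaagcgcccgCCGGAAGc
MRPS18A, chr6:43687792-43688041, minus strand: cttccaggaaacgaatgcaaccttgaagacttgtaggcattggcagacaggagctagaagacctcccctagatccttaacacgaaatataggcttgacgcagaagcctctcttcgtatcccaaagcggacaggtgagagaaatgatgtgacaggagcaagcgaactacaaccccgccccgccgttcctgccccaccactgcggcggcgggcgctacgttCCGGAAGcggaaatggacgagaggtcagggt
MRPS31, chr13:40771191-40771440, minus strand: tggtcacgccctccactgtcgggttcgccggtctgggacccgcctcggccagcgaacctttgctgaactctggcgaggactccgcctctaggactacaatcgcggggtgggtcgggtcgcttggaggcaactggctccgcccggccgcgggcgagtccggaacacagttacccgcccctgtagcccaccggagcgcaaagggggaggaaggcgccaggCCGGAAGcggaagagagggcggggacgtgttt
MRPL11, chr11:66438849-66439098, minus strand: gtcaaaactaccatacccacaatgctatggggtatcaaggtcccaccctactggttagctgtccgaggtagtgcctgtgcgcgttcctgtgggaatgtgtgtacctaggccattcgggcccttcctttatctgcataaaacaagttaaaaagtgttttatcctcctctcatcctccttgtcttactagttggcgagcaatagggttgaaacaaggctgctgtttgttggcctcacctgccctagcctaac

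MRPS31, 1 of the genes shown, had a log2 fold change of 0.54 (edgeR adjusted p = 0.0254). Its call ended without vector replicate 2 (0.0754) or 3 (0.0646) and without BHLHE22 replicate 1 (0.0723) or 3 (0.0637).

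Other genes of mitochondrial translation were chosen by function. Of 51, 24 rose (47.1%), 3 fell (5.88%) and 24 were not called, with a median log2 fold change of 0.33. Over all tested genes 25.1% were higher and 24.3% lower. Among 6 proteins of the particle under other symbols, 3 rose: GADD45GIP1 from 72.4 ± 6.5 to 124.8 ± 9.1 CPM, AURKAIP1 by 0.38 and NDUFAB1 by 0.36 on the log2 scale. Of 17 translation factors and mRNA-binding partners 9 rose and 1 fell. The elongation factor gene GFM1 averaged 32.4 ± 4.9 CPM in vector and 67.1 ± 4.9 CPM with BHLHE22 (log2 fold change 1.05, SE 0.13, edgeR adjusted p = 0.000589). SLIRP, which stabilizes mitochondrial mRNAs, rose by 1.07, GUF1 by 0.72 and the initiation factor gene MTIF2 by 0.64. TUFM, the elongation factor that delivers aminoacyl-tRNA, averaged 209 ± 16 CPM in vector and 166 ± 7.1 CPM with BHLHE22, a fall (log2 fold change -0.34, SE 0.08, edgeR adjusted p = 0.0126; 0.0744 with unscaled library sizes). Of 28 assembly factors 12 rose and 2 fell. RBFA and the rRNA methyltransferase gene MRM2 rose by 1.05 and 1.10, MTERF3 by 1.08 and C1QBP by 0.50. NOA1 and MPV17L2 fell by 0.31 and 0.34. The adjusted p of NOA1 was 0.0135, and 0.0545 without vector replicate 1. That of MPV17L2 was 0.0496, and 0.0539 to 0.196 in 10 of the 13 other fits.

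The mRNAs that this ribosome translates went the other way. Of the 13 mRNAs of mitochondrial DNA 12 were lower and 0 higher, and they summed to 66024 to 74877 CPM in vector and 36783 to 42304 CPM in BHLHE22 libraries. Per CPM of mitochondrial ribosomal protein mRNA there were 24.5 to 29.9 CPM of mitochondrial DNA mRNA in vector and 11.4 to 12.3 CPM in BHLHE22 libraries. Of 77 tested cytosolic ribosomal protein genes, a list added after the data were seen, 50 were lower and 3 higher, with a median log2 fold change of -0.39. Beside both lists stand 25.1% higher and 24.3% lower over all tested genes. The difference between these lists and the mitochondrial ribosomal protein genes was not tested.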

How the data were processed

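RNA-seq of 6 PC-3 libraries was used as 1 deposited table of 58302 Ensembl genes. The authors deposited whole-number read counts and FPKM values per gene, per the file headers. Tools listed in the submitters' processing notes are StringTie 1.3.4b, HISAT2 2.1.0, CASAVA 1.8 and edgeR, for GRCh38; what each did, the counting options and strand use are not given there. Each deposited FPKM equalled the count divided by a fixed gene length and the library total (within 0.1% for 100% of 26866 genes). Columns headed control were taken as the vector libraries.

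Genes kept by filterByExpr (15945, 99.8% of counts) were tested with edgeR 4.0.16 in R 4.3.3: TMM scaling, robust quasi-likelihood, group as the only term, 2-sided, Benjamini-Hochberg over all tested genes, threshold 0.05. CPM values use TMM-scaled library sizes; the SE is the log2 fold change over the root of F. The biological coefficient of variation was 17.0%. Positions are those of the table; 97.6% of 58039 shared genes have the same position in GENCODE 29, which gave strands.

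Named are the 8 largest rises and falls with at least 1 CPM (only 1 gene fell), genes of stated role, the 3 with the highest FPKM, those next to the threshold, and up to 4 called genes of each other list with the smallest p. The other genes of the 3 structural regions, and genes named for overlap, spread, sequence or a fall (TUFM, NOA1, MPV17L2), were named after their values were seen. Printed promoters were chosen after the motif matches were seen, among windows without a GENCODE 29 exon. The members and lists were chosen with earlier results of these data known. Alternatives were the replicate block, other scalings and filters, DESeq2 1.42.0, limma-voom (limma 3.58.1), a 0.01 threshold, a 1.2-fold null and leaving out each library. The procedure was also run on simulated data in which few genes changed, so that run cannot judge it at the share of genes called here. The level of 1 marker gene is not reported here.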

Additional observations from a re-analysis of the deposited data

How the results depend on the processing

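The count of higher members was 40 to 52 under the other tests, scalings, filters and the block, and 32 to 41 without 1 library. The share of all tested genes called higher was 12.5% to 32.2% in the former fits and 19.6% to 24.1% in the latter. It was 28 at an adjusted p under 0.01 (15.6% of all tested genes higher) and 32 against a 1.2-fold change (18%). Among members that overlap no other gene it was 16 of 30, with 0 lower. The count of lower members was 1 to 2 without 1 library, where 18.7% to 23% of all tested genes were lower. Of the 43 higher members, 30 were called in all 13 other fits. Unscaled library sizes moved the median of all genes to 0.15 and that of the members to 0.53. With them 52 members were higher and 1 lower, where 32.2% of all tested genes were higher and 18.1% lower. They also left 0 of 3 falls among the other mitochondrial translation genes. The members' median was 0.38 to 0.45 without 1 library, and those falls numbered 1 to 3. Signs turned in at least 1 other fit for 13 members, none of them called, and without 1 library for 8. Among genes with values in the text, log2 fold changes without 1 library ranged from -0.366 to 0.0752 (MRPL10), -0.0579 to 0.222 (MRPS36), -0.14 to 0.47 (MRPL19) and -0.22 to 0.41 (MRPL49). With the replicate number as a block 41 members were higher and 1 lower; the correlation of same-numbered libraries was -0.0267 to 0.0105, so the numbers are not taken to pair the libraries. The causes of these shifts were not tested. MRPS12 has the fewest counts of the tested members, 12 to 39 per library.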
